A study of Mus musculus with 33 samples.

Results

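The genes of the major histocompatibility complex (MHC) and of antigen presentation were followed in sorted mammary epithelial cells of mice with and without PTHrP, the parathyroid hormone-related protein encoded by Pthlh. Members were the protein-coding genes whose symbol begins with H2-, the name of the mouse MHC, and B2m, Tap1, Tap2, Tapbp, Cd74, Ciita, Nlrc5, Psmb8, Psmb9 and Psmb10, where they had at least 10 reads summed over all libraries. The rule named 44 genes, 1 of which was under that minimum, so 43 of 55487 genes were followed. They were 2 classical class I genes, 21 class Ib genes, 8 genes of the class I machinery, 4 class II genes, 7 class II accessory genes and H2-Ke6, a steroid dehydrogenase gene that carries the H2 name for its place only. Of the 43 genes, 38 lie on chromosome 17 and 26 had reads in every library. A further 11 H2 rows of other gene types, such as the polymorphic pseudogene H2-Q5, were not members.

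The 33 RNAseq libraries came from 33 mice, 19 with mammary tumors and 14 with tumor-free glands. WT mice carried Pthrpwt/wt and KO mice Pthrpflox/flox, and all of them carried MMTV-Cre and the ROSA mTmG reporter, whose cells turn from red to green fluorescence where Cre has acted. Tumor mice also carried MMTV-PyMT. The WT tumors were 3 each of weeks 6, 8 and 10 and 1 of week 12, and the KO tumors were 3 each of weeks 8, 10 and 12. WT glands were 2 each of weeks 6, 8, 10 and 12, and KO glands 2 each of weeks 8, 10 and 12. The MMTV promoter limits both Cre and PyMT mainly to mammary epithelium, and cells were cultured briefly before those positive for GFP were sorted. The single WT tumor of week 12 has no replicate and entered no contrast.

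Libraries held 28419983 to 130981596 counted reads (median 46351179). PyMT reads were 0 in all glands and 107 to 7489 in the tumors. Pthlh was at 2.93 to 7.73 CPM (reads scaled to a common library size) in WT glands, 2.79 to 8.52 CPM in KO glands, 1.46 to 6.67 CPM in WT tumors and 1.35 to 2.29 CPM in KO tumors, and this count per gene includes exons outside the deleted part, so it does not check the KO labels. The share of ribosomal RNA reads had a median of 6.2% in KO glands, 0.952% in KO tumors, 0.0116% in WT glands and 0.0499% in WT tumors, and thus moved with genotype. Markers of mammary epithelium (10 genes, Epcam and Krt8 among them) summed to 7688 CPM or more in every library, and none was at 0. The second KO gland of week 10 stood apart by its B cell genes and the second WT gland of week 8 by its fibroblast genes, and member calls that end without one of them are given beside the result. Each mouse gave 1 library, so p-values measure the spread between mice.

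MHC class I molecules show peptides from inside the cell to cytotoxic T cells and are made by nearly all nucleated cells. Their peptides are cut by the immunoproteasome, carried into the endoplasmic reticulum by the TAP transporter and loaded with the help of tapasin. MHC class II molecules show peptides from outside the cell to helper T cells and are made chiefly by dendritic cells, macrophages and B cells, and by epithelia under interferon. Nlrc5 switches on class I genes, and Ciita switches on class II genes. The H2 complex differs strongly between mouse strains, and some of its genes are absent or silent in a given haplotype. The PyMT and Cre lines were FVB, the floxed mice came from C57BL/6 and had been backcrossed to FVB for several generations, and the mTmG reporter line was crossed in from another source whose background is not given. The H2 haplotype of each mouse is not given in the sources used here.

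Promoters are shown for H2-T23 and H2-DMb2, whose reads ran in opposite directions in the WT glands, as described below. H2-D1 and H2-K1 are shown because the ratio of their reads varied with these, and B2m as the highest member per length. Sequences are the 200 bases upstream of the RefSeq start on GRCm38.p6, 5′ to 3′ along the gene. Capitals mark matches, on either strand, to the Y box GATTGG bound by NF-Y and to the core of the interferon response element, GAAA and GAAA with NN between them. H2-K1 lies at chr17:34000334-34000533 on the minus strand, H2-D1 at chr17:35262894-35263093 on the plus strand, B2m at chr2:122147487-122147686 on the plus strand, H2-T23 at chr17:36032702-36032901 on the minus strand and H2-DMb2 at chr17:34145049-34145248 on the plus strand.
H2-K1: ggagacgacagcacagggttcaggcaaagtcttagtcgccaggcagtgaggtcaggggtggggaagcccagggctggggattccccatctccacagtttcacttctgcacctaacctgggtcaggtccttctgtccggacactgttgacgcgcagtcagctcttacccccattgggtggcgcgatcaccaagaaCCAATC
H2-D1: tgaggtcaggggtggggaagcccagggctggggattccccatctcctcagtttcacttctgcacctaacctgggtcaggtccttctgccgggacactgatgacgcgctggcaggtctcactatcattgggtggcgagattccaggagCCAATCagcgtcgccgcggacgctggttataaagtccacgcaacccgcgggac
B2m: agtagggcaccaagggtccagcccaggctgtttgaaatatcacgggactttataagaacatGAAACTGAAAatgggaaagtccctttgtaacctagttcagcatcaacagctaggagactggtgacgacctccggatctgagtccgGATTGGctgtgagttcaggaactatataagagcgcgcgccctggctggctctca
H2-T23: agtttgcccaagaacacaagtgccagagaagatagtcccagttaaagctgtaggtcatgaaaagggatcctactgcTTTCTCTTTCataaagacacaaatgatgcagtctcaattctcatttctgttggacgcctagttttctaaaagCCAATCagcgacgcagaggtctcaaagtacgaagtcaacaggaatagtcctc
H2-DMb2: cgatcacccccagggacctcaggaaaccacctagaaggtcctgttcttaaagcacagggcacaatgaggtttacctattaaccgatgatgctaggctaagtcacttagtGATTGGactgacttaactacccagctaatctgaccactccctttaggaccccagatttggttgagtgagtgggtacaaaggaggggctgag
Of 36 members with a promoter in the table, 26 held a Y box, and 12.92% of all 32851 promoters did. The interferon core was found in 3 members (B2m, H2-T22 and H2-T23) and in 2.271% of all promoters. Such a match describes the letters in this window and is not a binding site. Some of these RefSeq starts lie inside the gene as the GENCODE annotation draws it.

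The class I genes were by far the most abundant members. Per kilobase of exon, the median over the 33 libraries was 460.9 CPM for B2m, the light chain shared by all class I molecules, 229.4 CPM for H2-D1 and 118.9 CPM for H2-K1, both classical heavy chains. Tapbp (tapasin) reached 93.5 CPM per kilobase, Psmb8 13.3, Psmb10 12.7, Tap2 11.9, Tap1 3.58, Nlrc5 1.28 and Psmb9 1.04. Of the class Ib genes, H2-Q4 stood at 22.6 CPM per kilobase and H2-T23, which encodes Qa-1, at 11.4. Class II genes were low: H2-DMb1 was at 1.42 CPM per kilobase, H2-DMa at 0.699, H2-Ab1 at 0.637, Cd74 (the invariant chain) at 0.320, H2-Eb1 at 0.188, Ciita at 0.0402 and H2-Aa at 0.0225. The median was 0 for 7 members, all class Ib genes of the H2-M group.

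Some rows of the H2 complex had reads in some mice and almost none in others, most plainly among WT glands. H2-DMb2, which encodes a beta chain of the peptide exchange factor H2-DM and lies at chr17:34143307-34151555, had 0 and 4 reads in the WT glands of week 6 and 0 and 0 reads in those of week 12. At week 8 it had 108 and 138 reads, and at week 10 it had 306 and 95. H2-Q5, at chr17:35394126-35397800 and 1242.57 kilobases from H2-DMb2, did the opposite, with 103 and 146 reads at week 6, 95 and 53 at week 12, 0 and 0 at week 8, and 0 and 2 at week 10. So the 4 WT glands of weeks 6 and 12 held H2-Q5 without H2-DMb2, and the 4 of weeks 8 and 10 held H2-DMb2 without H2-Q5. Among all 55487 genes, these 2 were the only ones with at most 4 reads in one of these sets of 4 WT glands and at least 30 reads in each of the other 4, a search made after the pattern was seen. Of the 50-base words of these genes' exons, 24.76% in H2-DMb2 and 36.45% in H2-Q5 also occur in other genes, so that reads of near copies could be placed elsewhere. A further row, BC023719, came near the limits of that search. It had 1 and 1 reads at week 6, 124 and 0 at week 12, and 295 to 734 at weeks 8 and 10.

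Other rows varied with these. The number of H2-D1 reads for each H2-K1 read was 0.812 and 0.937 in the WT glands of week 6, and 0.892 and 0.830 in those of week 12. It was 2.91 and 3.56 at week 8 and 3.06 and 3.37 at week 10, with no overlap between the sets. H2-T23 was at 36.1 and 94.5 CPM at week 6, 27.5 and 48.3 CPM at week 12, 1.66 and 5.74 CPM at week 8 and 4.0 and 5.46 CPM at week 10, again without overlap. H2-T22 was at 13.2 to 42.2 CPM in the 4 glands of weeks 6 and 12 and at 3.50 to 7.73 CPM in the 4 of weeks 8 and 10. H2-Ab1, a class II beta chain, went the other way, at 0.769 and 0.893 CPM at week 6, 0.796 and 0.548 CPM at week 12, 4.25 and 5.38 CPM at week 8 and 4.37 and 5.03 CPM at week 10.

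The same rows split mice of the other groups. H2-Q5 had at most 3 reads in 4 of 8 WT glands, 1 of 6 KO glands, 1 of 10 WT tumors and 3 of 9 KO tumors. H2-DMb2 had at most 4 reads in 4 of 8 WT glands, 0 of 6 KO glands, 1 of 10 WT tumors and 1 of 9 KO tumors. Both rows were above these levels in 0 of 8 WT glands, 5 of 6 KO glands, 8 of 10 WT tumors and 5 of 9 KO tumors, so mice with both rows on were found in every group except the WT glands. The H2-D1 to H2-K1 ratio was 1.03 to 3.01 in KO tumors, 1.04 to 3.01 in WT tumors and 1.49 to 2.78 in KO glands.

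Over all 33 libraries these rows varied together. The 9 libraries with at most 3 H2-Q5 reads had 26 to 306 reads of H2-DMb2, 2.66 to 3.56 H2-D1 reads for each H2-K1 read and 1.66 to 8.25 CPM of H2-T23. The 6 libraries with at most 4 H2-DMb2 reads had ratios of 0.812 to 1.04 and H2-T23 at 27.5 to 94.5 CPM. The other 18 had ratios of 1.49 to 2.06 and H2-T23 at 8.42 to 84.2 CPM, and they overlapped in the ratio with neither of the other sets. These sets were formed from measured reads and are described only. In WT glands the pattern and week cannot be told apart, and in the comparisons of tumors with glands or of genotypes it is not balanced between groups.

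**Figure D1:**
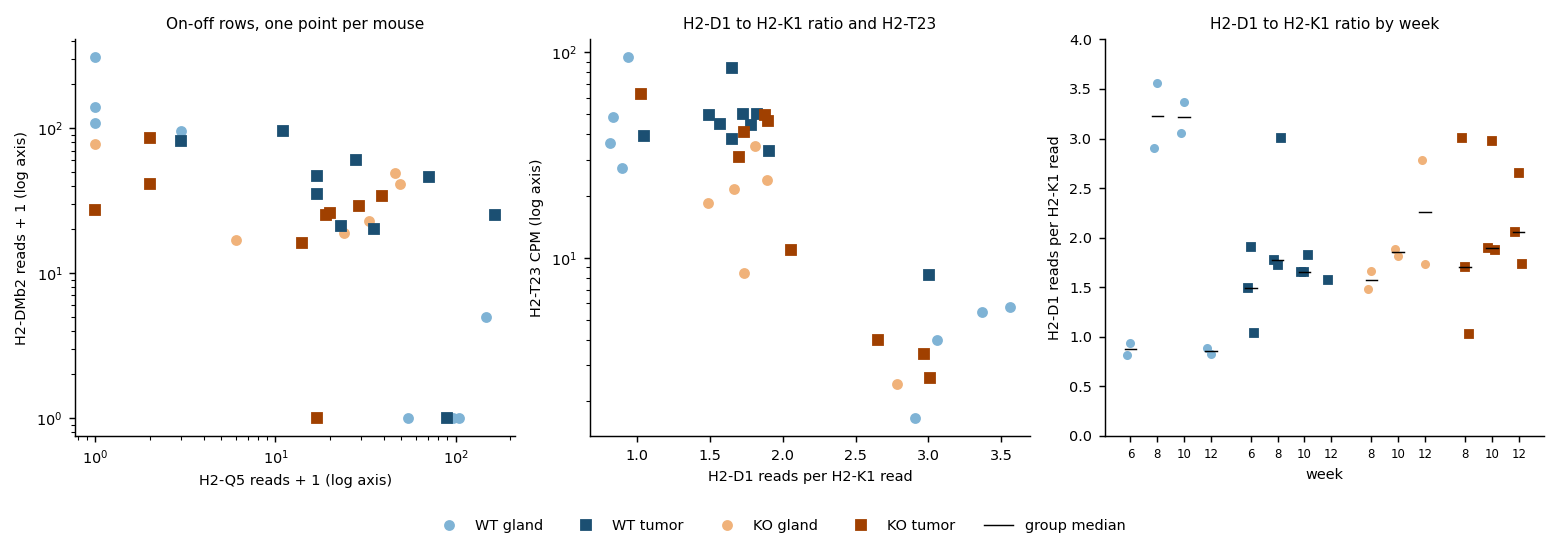
Left, H2-Q5 reads against H2-DMb2 reads, each plus 1, on log axes. Middle, H2-D1 reads per H2-K1 read against H2-T23 CPM. Right, the H2-D1 to H2-K1 ratio by group and week. Each point is 1 mouse, and the WT glands of weeks 8 and 10 lie at ratios of 2.91 to 3.56, those of weeks 6 and 12 at 0.812 to 0.937.

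Tumors were first compared with glands of the same genotype. A gene was called where its fold change was over 1.5 and its adjusted p (edgeR's quasi-likelihood test with Benjamini-Hochberg adjustment over 36527 genes) under 0.1. Averaged over weeks 6, 8 and 10, 16 of 43 members were called in WT, 2 higher and 14 lower in tumors, where 15.7% of all genes tested were called in either direction (6.21% higher, 9.53% lower). The median log2 fold change was −0.52 over the members and 0.03 over all genes. Averaged over weeks 8, 10 and 12, 4 of 43 members were called in KO, 1 higher and 3 lower in tumors, where 10.6% of all genes were called (5.16% higher, 5.44% lower). In these bulk samples, fewer cells of a type and less RNA per cell cannot be told apart.

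The class I machinery was lower in WT tumors than in WT glands in 5 of its 8 genes, with a median log2 fold change of −0.74. Tap1, one chain of the peptide transporter, was at 10.4 to 88.6 CPM in the 8 WT glands (median 33.3) and 14.6 to 52.8 CPM in the 10 WT tumors (median 19.5). Of the 9 WT tumors of weeks 6 to 10, 6 lay below all 6 glands of those weeks, and the log2 fold change was −1.06 ± 0.26 (SE; adjusted p = 0.0048 by edgeR's quasi-likelihood test). Psmb9, an immunoproteasome subunit, ran from 1.99 to 20.8 CPM in WT glands (median 6.87) and from 2.05 to 10.7 CPM in WT tumors (median 3.83), a log2 fold change of −1.33 ± 0.30 (adjusted p = 0.00226, edgeR). Both genes spread widely within each tissue, and the ranges overlapped.

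Tap2, the other transporter chain, fell by 0.77 on the log2 scale (adjusted p = 0.000933, edgeR) and Psmb8, also of the immunoproteasome, by 0.70 (adjusted p = 0.0343, edgeR). Nlrc5, the class I transactivator, was at 8.3 to 53.6 CPM in WT glands and 1.36 to 54.1 CPM in WT tumors, with a log2 fold change of −1.134 ± 0.40 (adjusted p = 0.0498, edgeR). Tapbp missed the fold limit at −0.39 ± 0.10 (adjusted p = 0.00652, edgeR), B2m was at −0.27 ± 0.21 and Psmb10 at −0.26 ± 0.17. Without the second WT gland of week 8, 10 of 43 members were called, and Tap2 (−0.52), Psmb8 (−0.41) and Nlrc5 (−0.65) were no longer called, whereas Tap1 and Psmb9 were called under every alternative tried. The call of Psmb8 also ended without the second gland of week 6 (adjusted p = 0.144, edgeR) and with the log2 ratio of H2-Q5 to H2-DMb2 reads, an alternative chosen after these rows were seen (adjusted p = 0.120, edgeR), or the rRNA share (−0.51, under the fold limit) as covariate. That of Nlrc5 also ended without the second gland of week 10 (adjusted p = 0.142, edgeR) and with only the groups compared (adjusted p = 0.150, edgeR). In the second WT gland of week 8, markers of macrophages summed to 51.1 CPM, of fibroblasts to 1308 CPM and of endothelium to 61.6 CPM. Each was the highest value of all libraries, and the part these cells have in the result was not tested.

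Over all WT glands fibroblast markers summed to 77.5 to 1308 CPM and endothelial markers to 8.02 to 61.6 CPM, against 42.3 to 249.9 CPM and 4.44 to 8.03 CPM in WT tumors. The endothelial list held Flt1 at 2.02 to 52.3 CPM over all libraries, and none of its other genes went above 4.16 CPM. Macrophage markers were at 7.22 to 51.1 CPM in WT glands and 9.36 to 18.7 CPM in WT tumors. Of the pan-leukocyte markers, the list summed to 65.5 to 180.7 CPM in WT glands and 249.7 to 591.1 CPM in WT tumors, and it was dominated by Lcp1 (51.9 to 810.2 CPM over all libraries), while Ptprc had a median of 0.403 CPM. The part of these cells in the results was not tested.

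The classical class I genes did not pass the test. H2-K1 was at 236 to 535 CPM in WT glands (median 410) and 265 to 722 CPM in WT tumors (median 351), a log2 fold change of −0.05 ± 0.16. H2-D1 was at 307 to 1473 CPM in WT glands (median 594) and 490 to 1315 CPM in WT tumors (median 595), a log2 fold change of −0.34 ± 0.19. This mean joined weeks of unlike direction. At week 6 the glands were at 354 and 502 CPM and the tumors at 521 to 598 CPM. At week 8 the glands were at 686 and 1473 CPM and the tumors at 490 to 796 CPM. At week 10 they were at 1233 and 1371 CPM and at 529 to 1315 CPM. Of the 2 classical class I genes 0 were called by edgeR, 0 had an unadjusted p under 0.05 and 0 were called by DESeq2 in the mean over weeks. At week 8 alone, edgeR called 0, 1 had an unadjusted p under 0.05 and DESeq2 called 1 lower.

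Among the 21 class Ib genes, 1 was higher and 5 were lower in WT tumors. H2-M3, which presents N-formylated peptides, was at 2.10 to 5.70 CPM in WT glands (median 3.79) and 1.30 to 2.26 CPM in WT tumors (median 1.73). All 9 WT tumors of weeks 6 to 10 lay below all 6 glands of those weeks, with a log2 fold change of −1.26 ± 0.18 (adjusted p = 1.06e-05, edgeR). The other genes that fell were H2-Q2 (−0.74 ± 0.19), H2-Q6 (−1.21 ± 0.45), which encodes a Qa-2 chain, H2-Q10 (−1.48 ± 0.36), a secreted class I molecule, and H2-M9 (−2.96 ± 0.90, with 19 reads at most in a WT gland). H2-Q10 had 8 to 57 reads in WT glands and 3 to 15 in WT tumors. Of the 50-base words, 16.09% in H2-Q2, 31.97% in H2-Q6 and 18.98% in H2-Q10 also occur in other genes. Reads of near copies could thus be placed elsewhere. Without the second WT gland of week 8, which was rich in fibroblast markers, H2-Q2 (−0.47, adjusted p = 0.0982, edgeR), H2-Q6 (−0.65, adjusted p = 0.428) and H2-M9 (−2.27, adjusted p = 0.179) were not called. H2-Q6 lost its call under 9 of the alternatives in all, that one included. Of the members of class Ib called in no mean comparison, H2-Q4 (51.7 to 131.2 CPM in WT glands, 46.1 to 120.9 CPM in WT tumors) and H2-T22 (3.50 to 42.2 and 3.08 to 30.7 CPM) were the most abundant, and they were not called.

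H2-T23 rose in WT tumors. It was at 1.66 to 94.5 CPM in WT glands (median 16.6) and 8.25 to 84.2 CPM in WT tumors (median 44.6), a log2 fold change of 2.04 ± 0.60 (adjusted p = 0.0172, edgeR). No tumor lay outside the range of the glands, which split by week as described above. With the log2 ratio of H2-Q5 to H2-DMb2 reads as a covariate, the log2 fold change was 1.24 (adjusted p = 0.116, edgeR), and the call was lost. At week 6, where the glands were high in H2-T23, it was not called. At week 8 the log2 fold change was 3.20 ± 1.11 and at week 10 it was 3.61 ± 1.131 (adjusted p = 0.0671, edgeR), both weeks in which the glands were low. Under the same covariate these were 1.71 (adjusted p = 0.389, edgeR) and 1.55 (adjusted p = 0.531, edgeR), and neither was called. Both weekly calls also ended with either gland of that week left out.

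Class II genes had few reads, and most of them fell or did not pass the test, while their transactivator rose. Cd74 was at 0.538 to 2.69 CPM in WT glands (median 1.44) and 0.0528 to 1.02 CPM in WT tumors (median 0.285). All 9 WT tumors of weeks 6 to 10 lay below all 6 glands of those weeks, and the log2 fold change was −2.46 ± 0.57 (adjusted p = 0.00244, edgeR). H2-DMa and H2-DMb1, the chains of the factor that removes the invariant chain peptide, fell by 0.77 (adjusted p = 0.00148, edgeR) and 0.83 (adjusted p = 0.00565, edgeR). At week 6, where the glands almost lacked H2-DMb2, H2-DMb1 was at 4.84 and 7.14 CPM in glands and 1.23 to 1.90 CPM in tumors. At week 8 it was at 2.06 and 3.82 CPM and at 2.05 to 3.16 CPM, and at week 10 at 2.48 and 3.30 CPM and at 1.57 to 3.05 CPM. Of its 50-base words, 22.65% also occur in other genes. H2-Aa, a class II alpha chain with at most 0.331 CPM in WT glands, fell by 1.78 (adjusted p = 0.0546, edgeR), a call lost under 6 alternatives, among them the rRNA covariate (−1.52, adjusted p = 0.134, edgeR) and the first WT gland of week 10 left out (−1.27, adjusted p = 0.323, edgeR). H2-Ab1 was at −0.77 ± 0.39 and H2-Eb1 at −0.52 ± 0.29, and neither passed. The mean of H2-Ab1 joined 0.55 ± 0.71 at week 6, where the glands were low, with −1.53 ± 0.66 at week 8 and −1.33 ± 0.66 at week 10, and none of the 3 was called by edgeR (1 had an unadjusted p under 0.05, and DESeq2 called 0).

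Ciita was at 0.0547 to 0.254 CPM in WT glands (3 to 18 reads) and 0.384 to 1.17 CPM in WT tumors (14 to 61 reads). Every WT tumor was above every WT gland, and the log2 fold change for weeks 6 to 10 was 2.35 ± 0.39 (adjusted p = 6.82e-05, edgeR). Ciita and Cd74 thus moved in opposite directions. H2-DMb2 was at 0 in some libraries of both tissues and no fold is given.

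**Figure D2:**
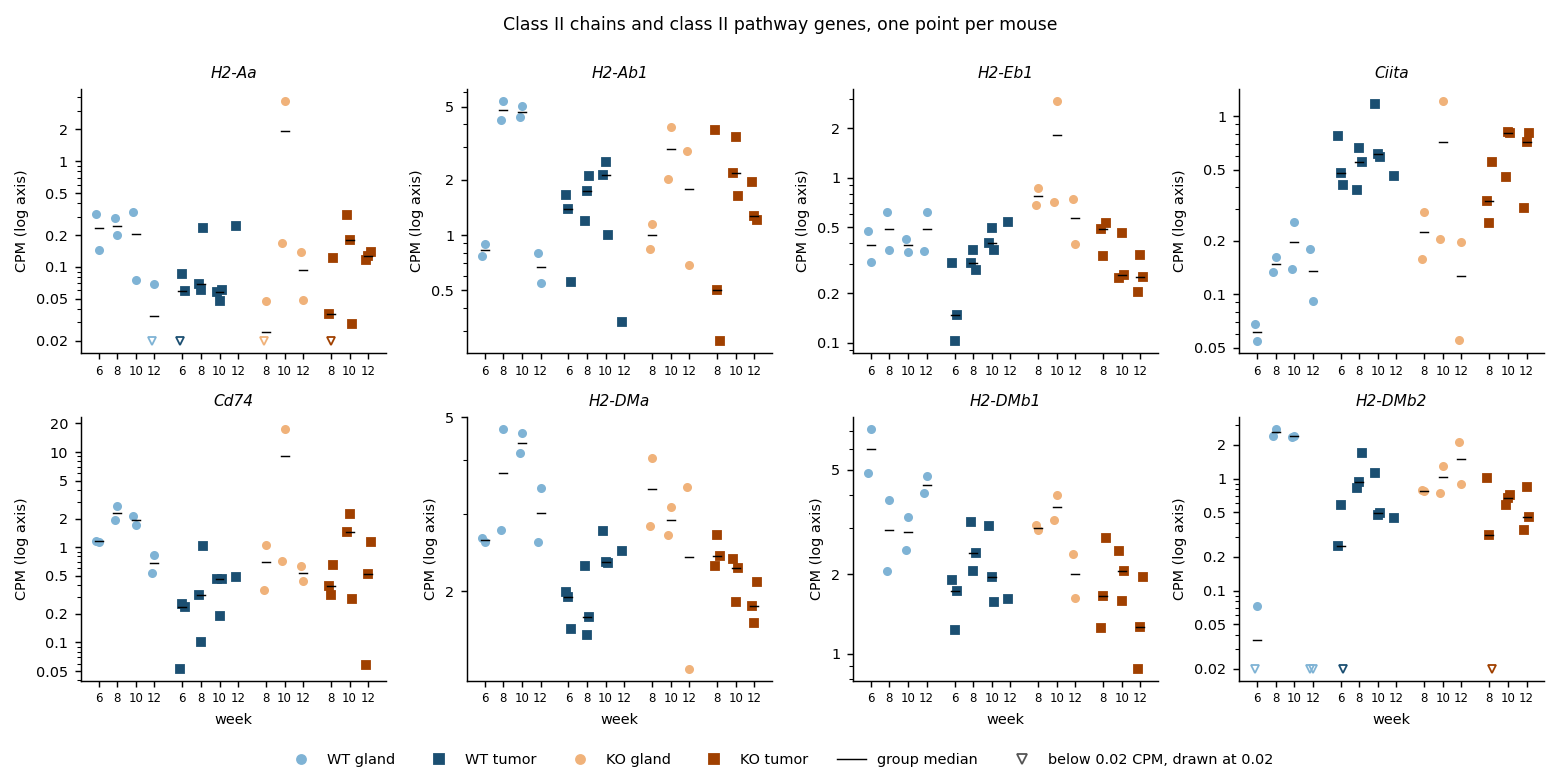
CPM of 8 class II and accessory genes on a log axis, by group and week. Each point is 1 mouse, the black line is the group median, and open triangles are mice under the lowest level drawn. Ciita lies higher in the WT tumors than in any WT gland, and Cd74 is highest in 1 KO gland at 17.6 CPM.

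By week, 1 member was higher and 2 lower in WT tumors at week 6, where 5.86% of all genes were called (2.32% higher, 3.53% lower). At week 8, 2 were higher and 8 lower, against 9.19% of all genes (3.35% higher, 5.84% lower). At week 10, 2 were higher and 2 lower, against 6.13% of all genes (2.46% higher, 3.67% lower). Ciita was higher in tumors each time, by 3.16 ± 0.74 at week 6, 1.82 at week 8 and 2.08 at week 10 on the log2 scale. H2-M3 was lower each time, by −0.98 ± 0.32, −1.64 and −1.17. Of the weekly calls of Ciita and H2-M3, only that of H2-M3 at week 8 held under every alternative. The other lower call of week 6 was H2-DMb1 (−1.89 ± 0.36, adjusted p = 0.00319, edgeR), and it held under every alternative too. The call of Ciita was lost at week 6 without the second gland (adjusted p = 0.23, edgeR), at week 8 without either gland or under the H2-Q5 to H2-DMb2 covariate (adjusted p = 0.168, edgeR) among others, and at week 10 without either gland or under the covariate (adjusted p = 0.151, edgeR) among others. The call of H2-M3 was lost at week 6 under 8 alternatives, among them either gland left out (adjusted p = 0.215 and 0.410, edgeR), and at week 10 under 4. Nlrc5 (−1.95), Psmb9 (−1.62), Tap1 (−1.31) and Tap2 (−0.89) were called by edgeR at week 8 and not at weeks 6 and 10, and the difference between weeks was not tested. DESeq2 called 5 genes of the machinery at week 8 and 2 at week 10. Without the second WT gland of week 8, these values were −0.48, −0.25, −0.15 and −0.12 (adjusted p = 0.842, 0.899, 0.952 and 0.910, edgeR). The calls of H2-T23 (4.36, adjusted p = 0.166, edgeR) and Ciita (1.97, adjusted p = 0.316, edgeR) at week 8 were lost without it too, and H2-M3 alone of the members was called. Without the second WT tumor of week 8 the calls of these 4 machinery genes were also lost, at −2.10, −1.74, −1.32 and −0.90 (adjusted p = 0.167, 0.111, 0.177 and 0.117, edgeR). With only the groups compared, or without the first tumor of week 8, none of the 4 was called, and under the H2-Q5 to H2-DMb2 covariate Psmb9 (−1.32), Tap1 (−1.14) and Tap2 (−0.69) were not (adjusted p = 0.198, 0.211 and 0.185, edgeR).

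In KO mice the class I machinery gave no calls between tumors and glands. Of its 8 genes, 0 were called by edgeR, 1 had an unadjusted p under 0.05, and 0 were called by DESeq2, with a median log2 fold change of 0.12. Tap1 was at 7.31 to 36.2 CPM in KO glands (median 11.4) and 6.47 to 32.4 CPM in KO tumors (median 15.6). H2-K1 was at 222 to 350 CPM in KO glands and 206 to 391 CPM in KO tumors, and H2-D1 at 455 to 634 and 330 to 778 CPM. In each of these genes the 2 tissues overlapped.

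The 4 members called in KO were H2-M3, H2-DMb1, H2-Eb1 and Ciita. H2-M3 was at 1.92 to 4.07 CPM in KO glands (median 2.58) and 1.07 to 2.00 CPM in KO tumors (median 1.68), and 7 of 9 tumors lay below all 6 glands. Its log2 fold change was −0.82 ± 0.19 (adjusted p = 0.00294, edgeR). H2-DMb1 fell by 0.69 (adjusted p = 0.0305, edgeR) and was not called without the first KO gland of week 12 (−0.58, adjusted p = 0.125, edgeR), and Ciita rose by 1.05 ± 0.39 (adjusted p = 0.0742, edgeR). Ciita was at 1.66 without the second KO gland of week 10 (adjusted p = 0.00592, edgeR) and at 1.92 with the recovered reads of the authors' second table. It lost its call with the replicate block (adjusted p = 0.114, edgeR), with only the groups compared (adjusted p = 0.128, edgeR) and with any of 8 single libraries left out (0.80 to 1.01). H2-M3 and H2-Eb1 kept their call under every alternative tried.

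H2-Eb1, a class II beta chain, was at 0.394 to 2.93 CPM in KO glands (median 0.732) and 0.204 to 0.530 CPM in KO tumors (median 0.336), a log2 fold change of −1.47 ± 0.29 (adjusted p = 0.000676, edgeR). The second KO gland of week 10 stood apart in class II genes, with 17.6 CPM of Cd74, 3.72 CPM of H2-Aa and 2.93 CPM of H2-Eb1. In it, 10 B cell markers summed to 21.7 CPM, against 0.148 to 1.63 CPM in the other libraries. It held 5.26 CPM of Ms4a1, against at most 0.124 CPM elsewhere. Dendritic cell markers reached 17.3 CPM and T and NK cell markers 8.17 CPM. The first sum held 9.31 CPM of Ccr7 and 4.29 CPM of Zbtb46, whose median over all libraries was 4.48 CPM. Flt3 was at its highest here (1.63 CPM), while Xcr1 and Clec9a were at 0. The second held 3.45 CPM of Lck, which reached 3.50 CPM elsewhere, and 1.55 CPM of Cd4, against at most 0.191 CPM elsewhere. Without this gland, H2-Eb1 in KO stayed called at −1.02 (adjusted p = 0.0168, edgeR).

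By week, 0 members were called in KO at week 8 by edgeR (2 at an unadjusted p under 0.05, 0 by DESeq2), where 2.49% of all genes were called (1.11% higher, 1.38% lower). At week 10, 3 were lower, against 5.66% of all genes (2.57% higher, 3.09% lower). At week 12, 1 was higher and 1 lower, against 6.11% of all genes (3.19% higher, 2.92% lower). The 3 of week 10 were H2-Aa (−3.44), Cd74 (−2.78) and H2-Eb1 (−2.50). Without the KO gland that stood apart, Cd74 was at 0.89 (adjusted p = 0.927, edgeR), H2-Aa at 0.06 (adjusted p = 1.00, edgeR) and H2-Eb1 at −1.15 (adjusted p = 0.468, edgeR), so these calls rested on that library. At week 12 Ciita rose by 2.40 ± 0.75 (adjusted p = 0.0641, edgeR), and the lower call was H2-T3 (adjusted p = 0.0218, edgeR), a class Ib gene named after its values were seen, with 24 and 0 reads in the KO glands of week 12 and 0 to 2 in the tumors. Neither call held without the first KO gland of week 12 (Ciita 1.62, adjusted p = 0.461, and H2-T3 adjusted p = 0.910, edgeR) or with only the groups compared (adjusted p = 0.282 and 0.286, edgeR). That of Ciita also ended without tumor replicate 2 or 3.

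**Figure D3:**
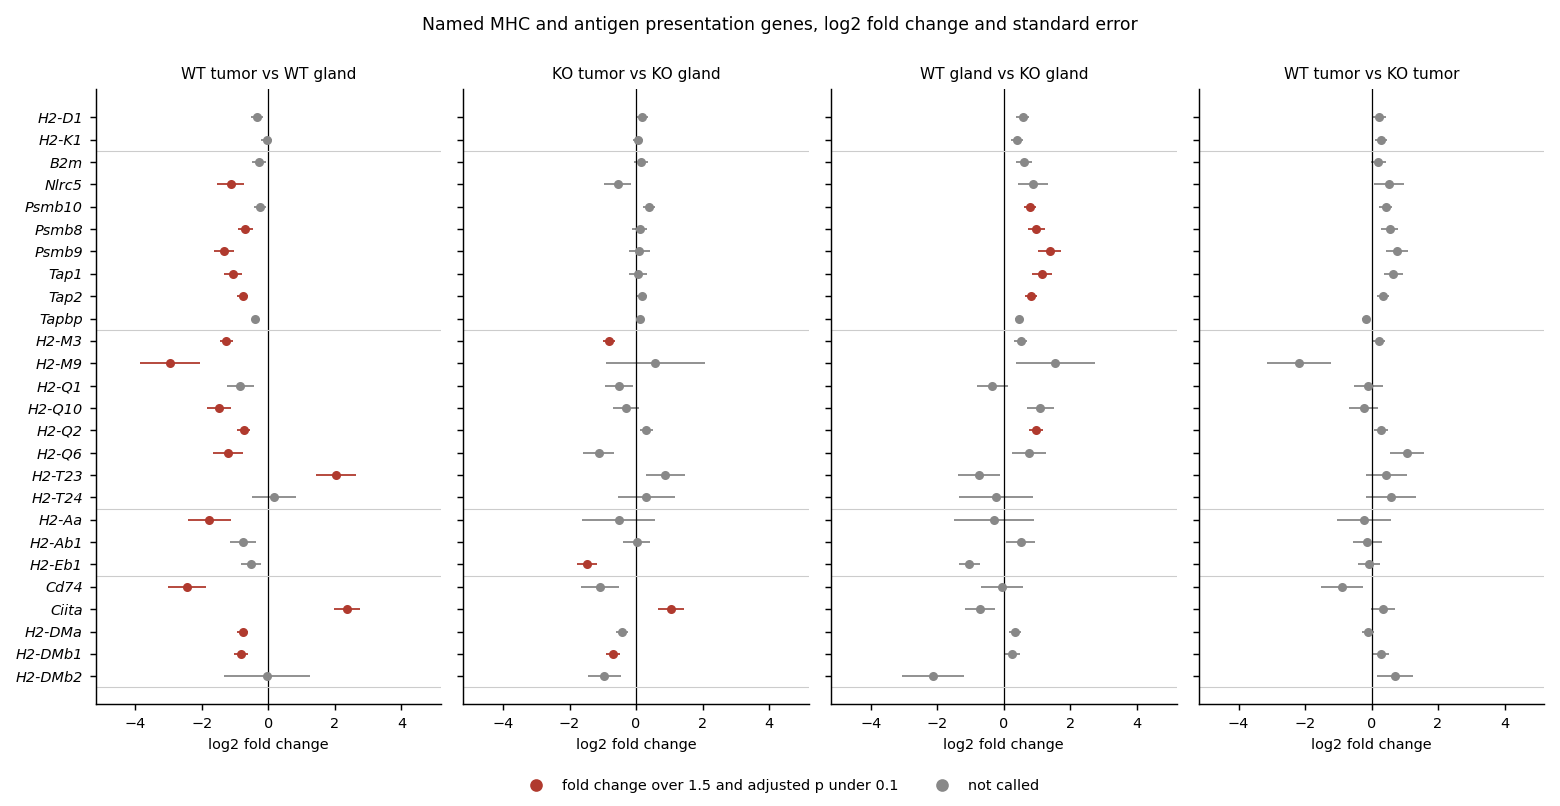
Log2 fold changes of the 26 named members in 4 comparisons, points with bars of 1 SE, red where called. In WT tumors against WT glands 16 of 43 members are called, and in KO 4 of 43.

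WT and KO glands were compared as the mean of weeks 8, 10 and 12. Of 43 members 6 were called, all higher in WT, where 0.906% of all genes were called (0.504% higher, 0.402% lower). The 5 genes of the class I machinery among them were Tap1, Tap2, Psmb8, Psmb9 and Psmb10, and the class Ib gene was H2-Q2. The median log2 fold change was 0.85 over the machinery and 0.14 over all genes. Beside this, fibroblast markers had a median of 250.2 CPM in all WT glands (77.5 to 1308) and 120.6 CPM in KO glands (71.3 to 390.4), and endothelial markers a median of 20.8 CPM (8.02 to 61.6) and 9.23 CPM (4.88 to 27.1). The endothelial sum included Flt1, as given above. The part of these cells in the result was not tested.

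Tap1 was at 21.3 and 73.6 CPM in WT glands of week 8, 88.6 and 52.4 at week 10, and 10.4 and 11.2 at week 12. In KO glands it was at 11.1 and 7.31 CPM at week 8, 28.3 and 36.2 at week 10, and 11.6 and 11.2 at week 12. Of the 6 WT glands, 3 were above all KO glands, and at week 12 both WT glands lay just below both KO glands. The log2 fold change was 1.14 ± 0.30 (adjusted p = 0.0827, edgeR).

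Tap2 was at 51.4 and 124.6 CPM in WT glands of week 8, 114.9 and 106.3 at week 10, and 27.5 and 30.1 at week 12. In KO glands it was at 29.4 and 20.8, 67.2 and 56.4, and 35.3 and 31.2 CPM. Weeks 8 and 10 were higher in WT and week 12 was not, with a log2 fold change of 0.81 ± 0.18 over the weeks (adjusted p = 0.0373, edgeR). Psmb9 (1.38 ± 0.35) and Psmb8 (0.98 ± 0.26) were likewise higher in both WT glands than in both KO glands at weeks 8 and 10 and lower at week 12, whereas Psmb10 (0.79 ± 0.19) was higher at each week. H2-Q2 was at 0.97 ± 0.22.

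The 6 calls were not stable. All 6 were lost with the share of rRNA reads, which was higher in KO glands, as a covariate, and also when only the groups compared were fitted. With the H2-Q5 to H2-DMb2 covariate 3 members were called. With single glands left out, 0 to 9 members were called. Without the second WT gland of week 8 the count was 0 (Tap1 at 0.75, Tap2 at 0.55, Psmb9 at 0.92), and without the second KO gland of week 10 it was 2. H2-K1 (0.39 ± 0.18) and H2-D1 (0.57 ± 0.21) were above 0 but did not pass after adjustment in edgeR. Of the 4 class II genes, 0 were called by edgeR (1 at an unadjusted p under 0.05), and 1 was called lower in WT by DESeq2.

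**Figure D4:**
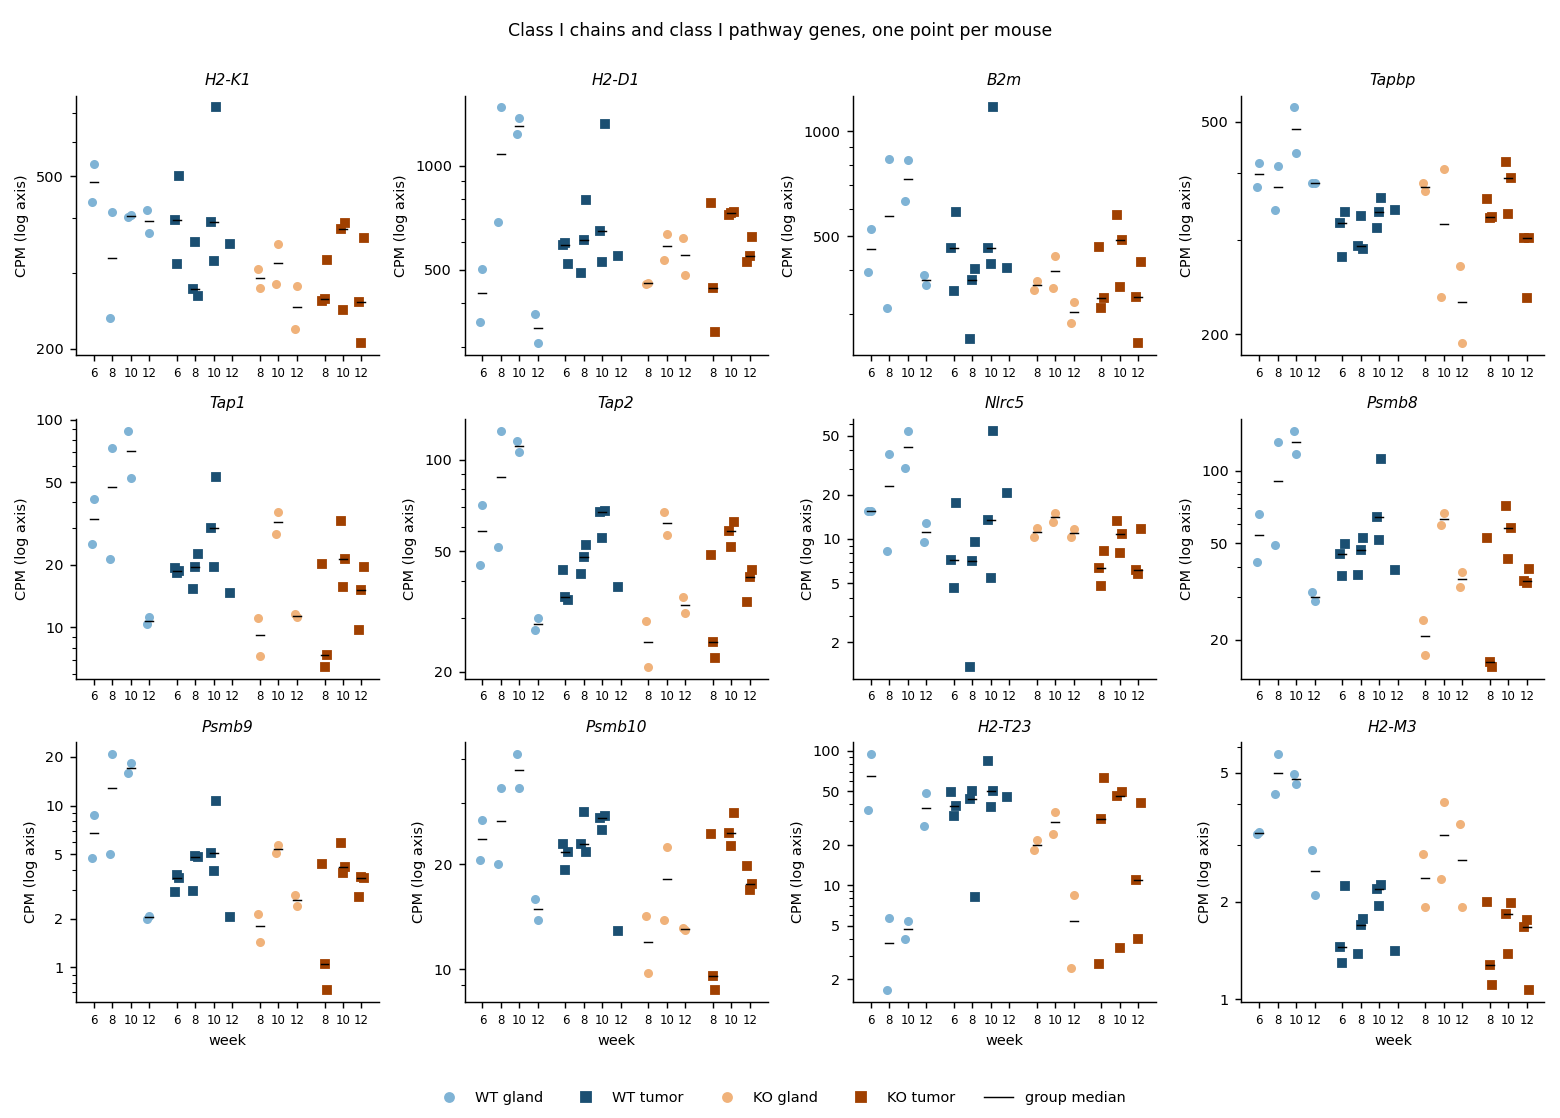
CPM of 12 class I genes and their machinery on a log axis, by group and week. Each point is 1 mouse and the black line is the group median. Tap1 reaches 88.6 CPM in a WT gland of week 10 and lies at 10.4 to 11.6 CPM in all glands of week 12.

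WT and KO tumors were compared as the mean of weeks 8 and 10. The paper treats KO tumors of week 8 as hyperplasia and WT tumors of week 8 as past that stage. Tumors of the same week thus differed in stage as well as in genotype, and the part of stage in this comparison was not tested. None of the members were called by edgeR (0 of 43, with 7 at an unadjusted p under 0.05 and 0 by DESeq2), where 0.512% of all genes were called (0.142% higher, 0.37% lower in WT). The machinery had a median log2 fold change of 0.48, with Psmb9 at 0.77 ± 0.34, Tap1 at 0.66 ± 0.29, Psmb8 at 0.55 ± 0.26 and Psmb10 at 0.42 ± 0.19. H2-K1 was at 0.29 ± 0.18 and H2-D1 at 0.24 ± 0.20. Without the first KO tumor of week 8, 4 members were called.

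The difference between the tumor effects of WT and KO, over weeks 8 and 10, was tested directly. It gave 0 calls among the 43 members by edgeR (15 at an unadjusted p under 0.05, 0 by DESeq2), where 0.00548% of all genes were called (0.00274% above 0 and 0.00274% below). Tap2 had the smallest p, with a difference of −0.97 ± 0.28 (unadjusted p = 0.0022, adjusted p = 0.68, edgeR). All 8 genes of the machinery had differences below 0, with a median of −0.88, and 6 of them an unadjusted p under 0.05. After adjustment, a difference between the genotypes in the tumor effect on these genes is not shown. Here too, WT and KO tumors of the same week differed in stage, and the part of stage was not tested.

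Within tumors, 0 members were called between weeks 10 and 6 in WT by edgeR (6 at an unadjusted p under 0.05, 0 by DESeq2, 0.011% of all genes). Over the members the median log2 fold change was 0.55, and over all genes it was 0.03. Tap2 was at 0.74 ± 0.26 and Psmb8 at 0.79 ± 0.36. Between weeks 12 and 8 in KO, 0 members were called by edgeR (3 at an unadjusted p under 0.05, 0 by DESeq2, 0% of all genes).

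A list of 30 other genes of antigen presentation was read beside the members. In WT tumors against WT glands 3 were higher and 7 lower (33.3% of the list, where 15.7% of all genes were called). Those that fell included Ctss, the protease that trims the invariant chain (−2.24 ± 0.54), the costimulatory genes Cd80 (−2.00 ± 0.39), Cd86 (−2.76 ± 0.65) and Cd40 (−1.73 ± 0.31), Fcgrt (−1.62 ± 0.39), and Jak2 (−0.82 ± 0.12), a kinase of interferon signalling. Those that rose were Lgmn (0.65 ± 0.16), Cd1d1 (0.80 ± 0.16) and Hfe (0.95 ± 0.26). The calls of the genes named here held without the second WT gland of week 8, with Ctss at −1.77 (adjusted p = 0.0339, edgeR). Of the 24 alternatives, Cd86 lost its call under 1 (−1.76 without the second gland of week 6, adjusted p = 0.252, edgeR) and Lgmn under 3, in each of which it was under the fold limit.

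In KO tumors against KO glands the same 3 genes were higher, and Fcgrt (−1.22 ± 0.39) and Cd80 (−1.08 ± 0.41) were lower (16.7% of the list, where 10.6% of all genes were called). The call of Cd80 was lost under 14 of 24 alternatives, among them without the second KO gland of week 10 (−0.69, adjusted p = 0.430, edgeR). That of Fcgrt held without that gland and ended without the first KO gland of week 12 (−0.61, adjusted p = 0.458, edgeR) or of week 8 (adjusted p = 0.131, edgeR). Ctss was at −0.28 ± 0.58 in KO and did not pass. Of the 30 genes, 0 were called between WT and KO tumors by edgeR (6 at an unadjusted p under 0.05, 0 by DESeq2), 0 between WT and KO glands (13 and 1) and 0 in the difference of tumor effects (2 and 0).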

How the data were processed

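The authors aligned stranded, rRNA-depleted RNAseq reads of sorted GFP+ cells with HISAT to GRCm38 and Gencode M16, removed duplicates with Picard 1.128 and deposited HTSeq raw counts per gene. Whether HTSeq used the strand is not given in the sources used here, so reads of overlapping antisense genes cannot be told apart. A second deposited table gives signal, that is gene reads over 1 size factor for each library. It served only as an alternative, with the factor undone (all values came out whole within 0.001). Of 55598 rows, 111 reporter, spike-in and transgene rows were left out.

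The 36527 genes whose reads over the 33 libraries came to 10 or more were fitted with edgeR 4.0.16 (TMM, quasi-likelihood test, R 4.3.3, limma 3.58.1), with 1 coefficient for each genotype, tissue and week, and p-values were adjusted by Benjamini-Hochberg over all of them. SE is the log2 fold change divided by the root of the F statistic. CPM values are TMM-scaled. Alternatives were DESeq2 1.42.0, its size factors, no filter, only the groups compared, the recovered reads, a replicate block, the rRNA share or the H2-Q5 to H2-DMb2 log2 ratio (0.5 reads added to each) as covariates, and each replicate left out in turn, with the dispersion trend of the full fit. The script was tested on simulated counts. Always named were 15 members, plus members called in a mean comparison or in the difference of tumor effects, and those with at most 3 reads in 1 library and at least 30 in another. Genes named outside this rule were chosen after their values were seen. The members, gene lists and comparisons were chosen with earlier results of these data known. Depth ranged from 28419983 to 130981596 reads, at which 3 reads were taken as the floor. Coordinates are GRCm38, and promoters are from RefSeq (GRCm38.p6).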

Additional observations from a re-analysis of the deposited data

How the results depend on the processing

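Counts are members called of 43, and leaving out 1 replicate is given as lowest to highest. In WT tumors against glands, the mean count of 16 ran from 10 (without the second WT gland of week 8) to 18. In KO the mean count of 4 ran from 2 (without the first KO gland of week 12) to 6, and it was 7 with DESeq2 and 7 with no filter. For WT the count of 3 at week 6 ran from 1 (without the second gland) to 4, and was 6 with DESeq2, 5 with no filter and 6 with only the groups compared. The 10 of week 8 ran from 1 (without the second gland or the second tumor, and 2 without the first tumor) to 12, with 4 under the H2-Q5 to H2-DMb2 covariate and 18 with no filter. The 4 of week 10 ran from 0 (without the second gland, and 1 without the first gland or the first tumor) to 8 (without tumor replicate 3), with 9 under DESeq2, 0 under the covariate and 9 with no filter. For KO the 0 of week 8 stayed 0 with any replicate out, and was 1 with no filter and 2 with only the groups compared. The 3 of week 10 ran from 1 (without the second gland, the second tumor or tumor replicate 3) to 5 (without the first gland). The 2 of week 12 ran from 0 (without the first gland, and 1 without tumor replicate 2 or 3) to 3, and was 0 with only the groups compared.

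Between WT and KO tumors the 0 ran from 0 to 4 (without the first KO tumor of week 8) and was 1 with no filter. Between the glands the 6 ran from 0 to 9. It was 0 without the second KO gland of week 8 or 12 or the second WT gland of week 8, 1 without the second WT gland of week 10 or the first of week 12, 2 without the second KO gland of week 10, and 3 without the first KO gland of week 10 or the second WT gland of week 12. It was 3 with the H2-Q5 to H2-DMb2 covariate, 0 with the rRNA covariate and 0 with only the groups compared. The difference of tumor effects ran from 0 to 0 and was 3 with no filter, WT tumors of week 10 against week 6 ran from 0 to 0 and were 1 with no filter, and KO tumors of week 12 against week 8 ran from 0 to 2 (without the first KO tumor of week 8).

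Of 48 single calls, 22 were lost with only the groups compared, 19 with the H2-Q5 to H2-DMb2 covariate, 14 with the rRNA covariate, 3 with the recovered reads, 2 with no filter, 1 with DESeq2 size factors and 0 of 47 with DESeq2, and 34 were lost with at least 1 replicate out. Under the replicate block, 6 of 48 calls were lost, and the counts were 18 and 6 for the WT and KO means, 6 between glands and 0 between tumors. By week they were 4, 11 and 3 in WT, and 0, 2 and 2 in KO. Same-numbered samples had correlations of −0.572 to 0.468 in their deviations, so the numbers do not pair the samples. Values that reversed with a replicate out were, in KO at week 10, Cd74 (−3.72 to 0.89) and H2-Aa (−4.36 to 0.064), both above 0 without the second gland, and, in KO at week 12, H2-T3 (−7.24 to 2.46), a class Ib gene named after its values were seen, above 0 without the first gland. The causes were not tested. Low counts, as in H2-Aa, and groups of 2 glands limit the precision.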
